A study of Mus musculus with 60 samples.

Results

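Tbr1 is a T-box transcription factor of glutamatergic projection neurons of the cerebral cortex, and the mice described here are those whose striatal tissue gave the highest and the lowest Tbr1 values in a panel of 60. All 60 mice were ranked by the deposited Tbr1 value, the 15 highest (high Tbr1 mice) were set against the 15 lowest (low Tbr1 mice), and 30 of 60 mice therefore entered the contrast. The other 30, of ranks 16 to 45, are called the middle mice and belong to neither group. Across the genes compared, those used as marks of cortical projection neurons were higher in the high Tbr1 mice, with a difference of at least 0.5 on the log2 scale for 8 of 15 (5.64% of all genes compared), and genes of striatal medium spiny neurons were on average lower, with a negative difference for 25 of 26 (51.3% of all genes). In the middle mice, slopes of the medium spiny genes on Tbr1 were 13 positive and 13 negative, and none passed the test. Between the extreme groups, differences were also negative for 13 of 13 oligodendrocyte, 13 of 13 microglial and 16 of 17 astrocyte genes. Because the mice were chosen by a measured value, this contrast is a description and carries no test, and the Tbr1 values themselves are not a result.

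The animals were HS-CC mice, an outbred heterogeneous stock bred from the founder strains of the collaborative cross, and they came from earlier generations selected for their response to haloperidol, a dopamine D2 receptor blocker. Each was labelled as a responder or non-responder for catalepsy, and as female or male. The striatum was dissected by hand and polyA RNA was sequenced in 1 library per mouse. The age of the mice, and the dose and timing of any drug, are not given in the sources used here. The high Tbr1 mice were 7 females, 4 of them responders, and 8 males, 3 of them responders. The low Tbr1 mice were 5 females with 2 responders and 10 males with 4, and the middle mice 16 females with 9 responders and 14 males with 8. All groups share the stock, the dissection and the library protocol, and the sources used here name no targeted allele.

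The striatum consists largely of GABAergic medium spiny neurons, which receive glutamatergic axons from the cortex but do not themselves belong to the lineage that expresses Tbr1. In the cortex, Tbr1 acts in young projection neurons, above all those of layer 6 and the subplate, where with Sox5 it belongs to the set of factors that separate corticothalamic from subcerebral identities. The cortex lies directly over the striatum, separated from it by the myelinated fibres of the corpus callosum and external capsule.

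The values are read counts scaled by library, as deposited, and a difference is the mean of log2(value + 1) in the high Tbr1 mice minus that in the low Tbr1 mice, so that folds of low genes are understated. Of the genes in the table, 8534 other than Tbr1 averaged at least 10 and were compared. The values that chose the mice were from 2231 to 3089 in the high group (median 2587), from 1137 to 2095 in the middle mice (median 1450) and from 219 to 1078 in the low group (median 831). At the edges of the groups, the lowest high mouse had 2231 and the mouse next below it 2095, while the highest low mouse had 1078 and the mouse next above it 1137. Mice 56 and 27, numbers taken from the labels, had Tbr1 values of 219 and 264 and stood below the next lowest mouse at 700.5. Both were responders, 1 male and 1 female.

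Recovered reads per library ranged from 4913122 to 21872744 over the 60 mice, with 17 mice at or below 9507322 and the other 43 at or above 12051239. The 17 are called shallow. Mice numbered 41 to 56 made up 16 of these 17 and also stood apart in a set of genes described further on, and 3 of them were in the high, 9 in the middle and 4 in the low group. The labels give these numbers no meaning as a batch. The 4 libraries with the strongest loss of 5′ exon signal were mice 63 and 4 in the middle group and mice 5 and 62 in the low group. High and low membership was not detectably tied to the labels or to depth: responders were 7 of 15 against 6 of 15 (odds ratio 1.31, p = 1), males 8 against 10 (odds ratio 0.571, p = 0.710) and shallow libraries 3 against 5 (odds ratio 0.50, p = 0.682), by two-sided Fisher's exact tests whose adjusted p over the 3 tests was 1 each. The labelled tissue was checked against its markers in the same 30 mice: Drd2, the dopamine D2 receptor, was from 3104.5 to 7188.7 and Ppp1r1b (DARPP-32), the protein phosphatase inhibitor of medium spiny neurons, from 13640 to 40190.

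**Figure D1:**
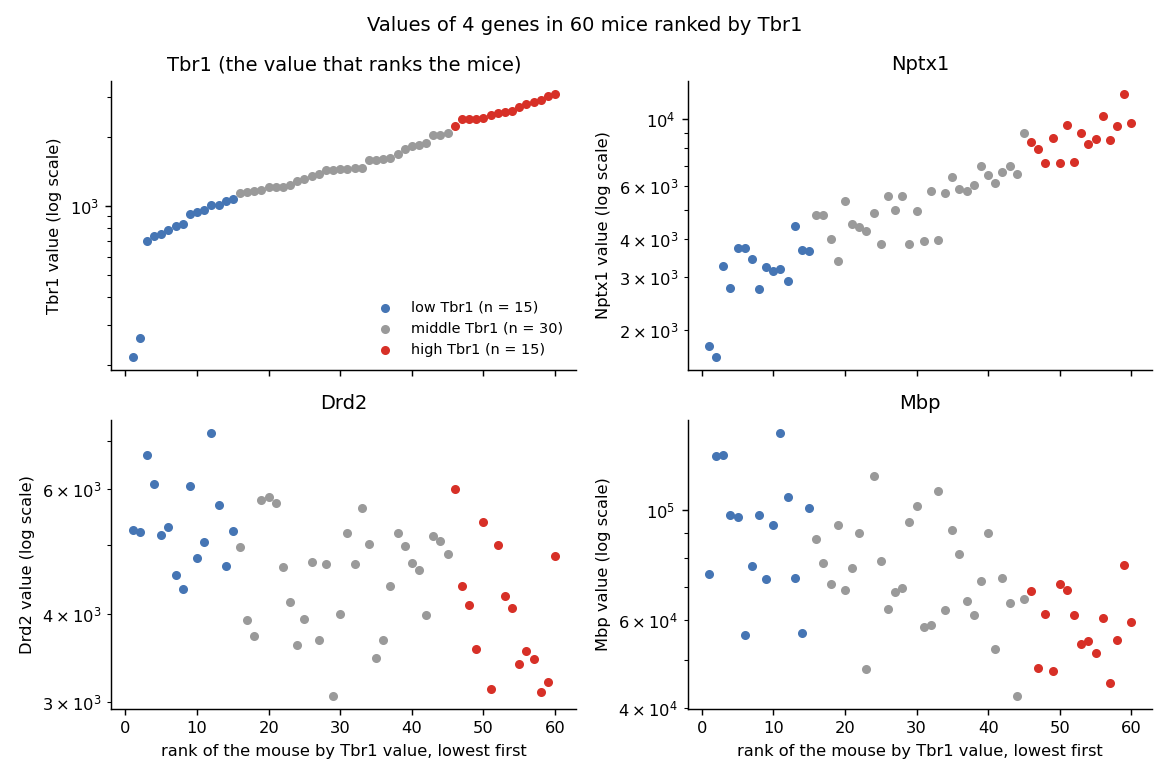
Values of Tbr1, Nptx1, Drd2 and Mbp (log axes) in the 60 mice, in order of their Tbr1 rank from the lowest, with the 15 low Tbr1 mice in blue, the 30 middle mice in grey and the 15 high Tbr1 mice in red. Tbr1 rises along the axis by construction. Nptx1 is at least 7154 in every high mouse and at most 4408 in every low mouse, while the Drd2 and Mbp ranges of the groups overlap.

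Between the groups, 227 genes were higher in every high Tbr1 mouse than in any low Tbr1 mouse (2.66% of the genes compared), and 6 were lower in every high mouse (0.0703%). A difference of at least 0.5 was seen for 481 genes (5.64%) and one of -0.5 or less for 330 (3.87%), around a median difference of -0.01 over all genes. These shares describe groups picked at the ends of a range, and nothing is read from them.

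The relation to Tbr1 was tested in the 30 middle mice, in which the slope of each gene on log2(Tbr1 value + 1) was fitted with limma. There, 63 genes had a positive slope (0.738% of the genes compared) and 1 a negative slope (0.0117%) at a Benjamini-Hochberg adjusted p under 0.05, and at an unadjusted p under 0.05 the numbers were 765 and 272. A slope of 1 means that a gene doubled where Tbr1 doubled. Of the 63 genes, 53 (84.1%) were among the 227 that did not overlap between the extreme groups, which is 23.3% of the 227. The 227 genes all had a positive slope in the middle mice, compared with 53.8% of all genes, although genes that vary together are not independent of each other. None of the middle mice belonged to the extreme groups. When the fit was restricted to the 20 mice of ranks 21 to 40, whose Tbr1 values span less, no gene passed the limma test, with 113 positive and 55 negative slopes at an unadjusted p under 0.05, and with deeper libraries alone 33 positive slopes passed.

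**Figure D2:**
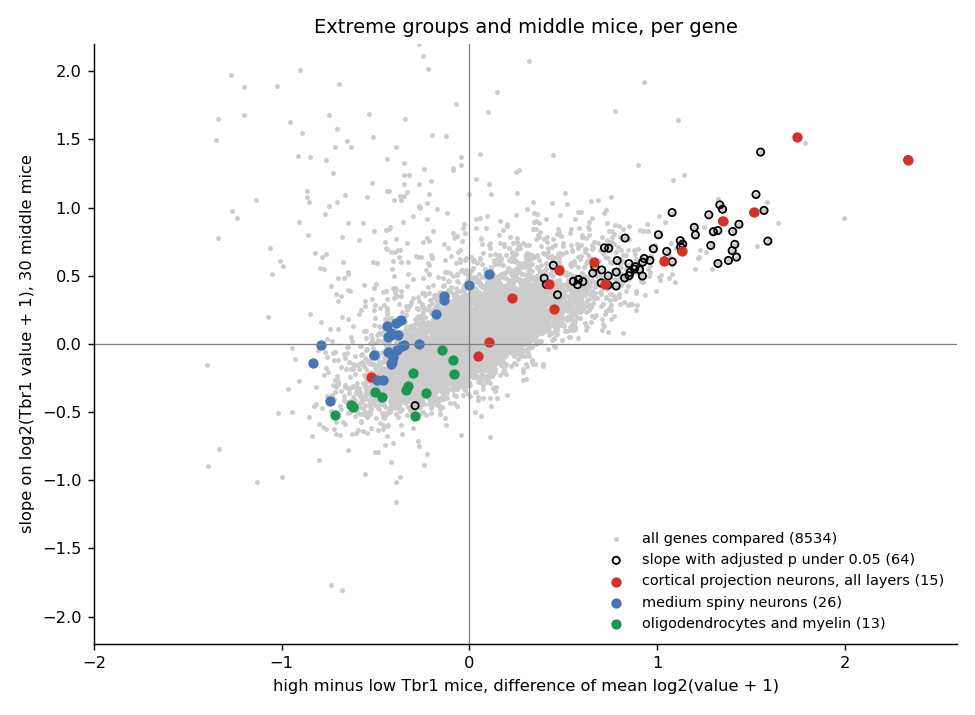
Each point is a gene, with the difference between the 15 high and 15 low Tbr1 mice (log2 scale) on the horizontal axis and its slope on log2(Tbr1 value + 1) in the 30 middle mice on the vertical axis, and 3 genes lie outside the axes. Genes with an adjusted p under 0.05 are circled and lie at the upper right except Fhl1, the cortical list (red) extends along the same direction, the medium spiny list (blue) lies left of 0 except for 1 gene, with slopes on both sides of 0, and the oligodendrocyte list (green) lies at the lower left.

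Nptx1, a neuronal pentraxin that clusters AMPA receptors at synapses, was from 7154 to 12093 in the high mice (median 8614) and from 1626 to 4408 in the low mice (median 3216). No low mouse reached the lowest high mouse, the difference was 1.52 (SD 0.21 in the high and 0.39 in the low mice, n = 15 each) and the slope in the middle mice was 0.96 (SE 0.14, adjusted p = 0.000218 by limma). Car10, a carbonic anhydrase-related protein without enzyme activity that binds neurexins, was from 949 to 2235 in the high mice (median 1571) and from 347 to 681 in the low mice (median 534). It separated the groups as completely, in each of its 7 exon rows averaging at least 10 as well, with a difference of 1.57 and a slope of 0.98 (SE 0.16, adjusted p = 0.000885 by limma).

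Ion channels, surface proteins and regulators were also among the 12 genes with the largest positive differences, all of at least 1.52. The ion channel genes were Kcnj6, a G protein-gated inward rectifier (360 to 924 in the high and 53.7 to 358 in the low mice), and Kcnh7, an ERG-type channel (587 to 2022 and 66.6 to 645). Kcnj6 separated the groups by a narrow margin and Kcnh7 overlapped, and their slopes of 1.47 (SE 0.48, adjusted p = 0.176) and 1.52 (SE 0.56, adjusted p = 0.241) did not pass the limma test, although with 5′ loss and shallow libraries as covariates both did (adjusted p = 0.000991 and 0.0139). Proteins of the cell surface and matrix were Hapln4, a link protein of perineuronal nets (1412 to 3156 in the high and 549 to 909 in the low mice), and Scube1, a secreted EGF-domain protein (642 to 1668 and 96.1 to 832). Hapln4 did not overlap and Scube1 did, with differences of 1.53 and 1.99, and the slopes of both missed the threshold (adjusted p = 0.293 and 0.0627), although that of Hapln4 passed in deeper libraries alone (adjusted p = 0.0299). Signalling and transcription were represented by Ptpn3, a tyrosine phosphatase (794 to 1311 against 206 to 555), Nr4a2, an orphan nuclear receptor of subplate and dopamine neurons (785 to 1900 against 69.8 to 862), and Nwd2, a NACHT and WD repeat protein (518 to 1345 against 129 to 664). Ptpn3 separated the groups and Nr4a2 and Nwd2 overlapped. All of these had positive slopes that passed the test, with values of 0.75 (SE 0.13), 1.41 (SE 0.24) and 1.10 (SE 0.23) and adjusted p of 0.00148, 0.00124 and 0.0104 by limma, of which that of Nwd2 did not pass in deeper libraries alone (adjusted p = 0.133). Fam205c, with a difference of 1.59, and Erich5, a low gene with medians of 22.6 and 7.47 and a difference of 1.64, overlapped between the groups and had slopes with adjusted p of 0.450 and 0.545.

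Tshz3, Satb1 and Sel1l3 were, with Nptx1, among the 5 genes of smallest p in the middle mice, and none of these 3 was in a cell type list. Tshz3, a zinc finger factor of cortical projection neurons, was from 564 to 1066 in the high mice (median 818) and from 194 to 423 in the low mice (median 339), and its slope was 0.99 (SE 0.15, adjusted p = 0.000627 by limma). Satb1, a chromatin organiser, was from 1864 to 3424 (median 2352) and from 645 to 1537.5 (median 1034), with a slope of 0.80 (SE 0.13, adjusted p = 0.000885). Both separated the groups completely, as did Sel1l3 with a slope of 0.72 (SE 0.12, adjusted p = 0.000885).

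To show what these genes have in common in sequence, the promoters listed by RefSeq (GRCm38.p6, 250 bases before to 50 after the start) were searched for GGTGTGA, the core of the T-box element, on both strands, so that the reverse strand match reads TCACACC. It was present in 3.98% of all 32851 promoters, in 258 of the 6370 compared genes with a promoter entry (4.05%), and in 7 of the 171 genes with an entry among the 227 that did not overlap (4.09%). The share among the separated genes was thus that of all genes. Of the 12 highest genes, 8 had an entry and 1, Nwd2, held a match. The Nwd2 promoter is shown for that match (chr5:63648853-63649106, + strand, capitals mark the match), the Tbr1 promoter for comparison (chr2:61804203-61804452, + strand, no match), and the windows around the matches of Sv2b (chr7:75302698-75302724, - strand) and Rap1gap2 (chr11:74559113-74559139, - strand) because these genes both separated the groups and had slopes that passed the test. A match is a string of letters and says nothing about binding.
Nwd2: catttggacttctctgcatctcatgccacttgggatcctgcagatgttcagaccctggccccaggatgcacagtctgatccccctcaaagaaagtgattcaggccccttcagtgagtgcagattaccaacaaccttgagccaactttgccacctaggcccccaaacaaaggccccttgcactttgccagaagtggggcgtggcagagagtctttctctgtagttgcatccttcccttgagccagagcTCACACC
Tbr1: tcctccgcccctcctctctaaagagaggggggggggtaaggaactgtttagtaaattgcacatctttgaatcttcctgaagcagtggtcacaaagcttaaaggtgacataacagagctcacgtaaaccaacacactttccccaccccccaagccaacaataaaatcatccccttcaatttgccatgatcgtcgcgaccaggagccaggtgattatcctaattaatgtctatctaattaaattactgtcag
Sv2b: gaaattcaggGGTGTGAtgttcttgga
Rap1gap2: agtctggggcGGTGTGAgtggctacca

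Cortical genes were followed through lists of markers, of which only genes in the table could be compared. For projection neurons of all layers, 15 of 30 listed genes were compared. Of these, 14 had a positive difference (4152 of the 8534 genes compared), 8 of at least 0.5 (5.64% of all genes). A further 1 was at -0.5 or less (3.87%). Groups did not overlap for 5 (2.66%), and the median was 0.67, next to -0.01 over all genes. In the middle mice 5 of the 15 slopes passed the test, all positive (0.738% of all genes), with a median slope of 0.54 against 0.02 over all genes. The summed value of the list was from 121940 to 159250 in the high, from 100410 to 152110 in the middle and from 84908 to 125470 in the low mice. The sums of the extreme groups overlapped, whereas single members such as Nptx1 did not. In tissue sequenced in bulk, here and in the lists that follow, fewer cells of a type and less RNA per cell cannot be told apart.

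The 5 members that did not overlap were the 5 whose slopes passed. Besides Nptx1 they included Lingo1, a Nogo receptor partner (4525 to 8022 in the high and 1299 to 3345 in the low mice), Mef2c, an activity-dependent transcription factor (7552 to 12406 and 3542 to 5990), and Sv2b, a synaptic vesicle glycoprotein (10684 to 15388 and 3392 to 9417). Their slopes were 0.90 (SE 0.15), 0.68 (SE 0.13) and 0.61 (SE 0.10), with adjusted p of 0.000885, 0.00253 and 0.00124 by limma. At the other end Arpp21, a cAMP-regulated phosphoprotein of cortex and striatum, was from 16954 to 26067 in the high and from 23179 to 38027 in the low mice, a difference of -0.52.

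**Figure D3:**
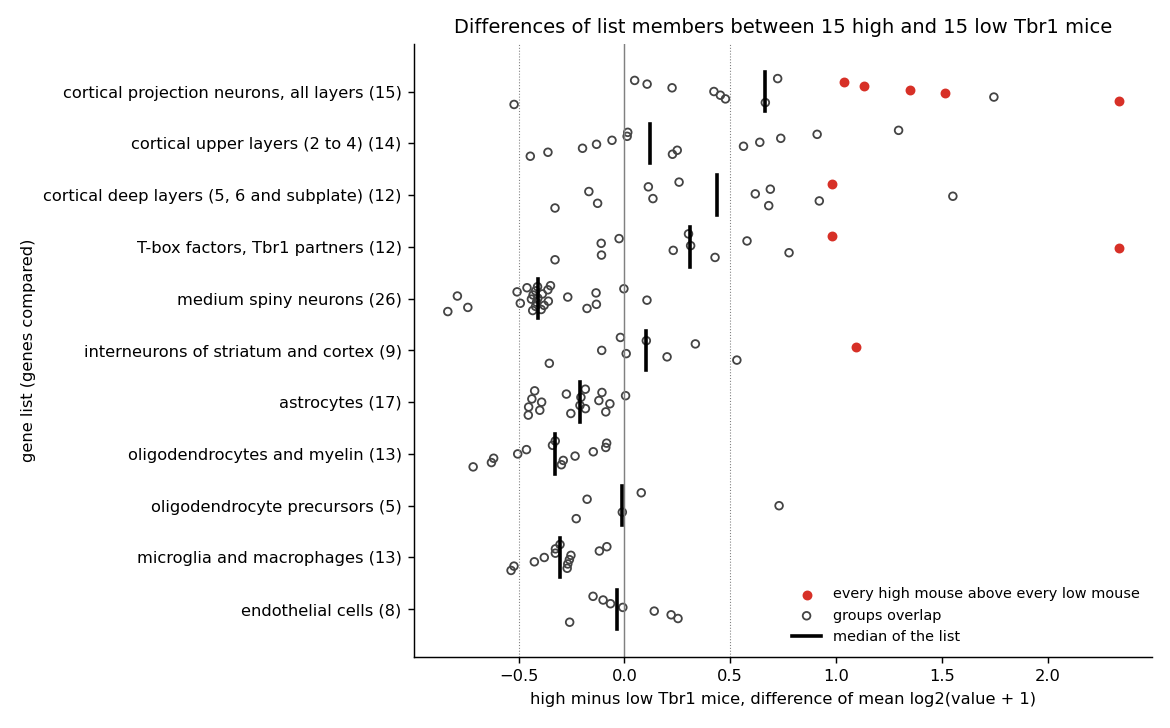
Difference between the 15 high and 15 low Tbr1 mice (log2 scale) of the members of 11 gene lists, 1 point per gene, with filled red points for genes whose groups did not overlap and a black bar at the median of each list. The cortical lists lie mostly right of 0 and hold most of the filled points, and the medium spiny, astrocyte, oligodendrocyte and microglial lists lie mostly left of 0.

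By layer, genes of the deep layers and subplate, where Tbr1 itself is known to be expressed most, had a median difference of 0.44 over 12 of 28 listed genes, and genes of the upper layers 0.12 over 14 of 20. Differences were negative for 3 of 12 deep genes and 5 of 14 upper genes (51.3% of all genes). A difference of at least 0.5 was found for 6 of 12 deep genes and 5 of 14 upper genes (5.64% of all genes). None of either list was at -0.5 or less (3.87%), and 1 deep gene and no upper gene separated the groups completely (2.66%). The difference between the lists was not tested. In the middle mice the slopes of 2 deep genes passed the test (0.738% of all genes), Nr4a2 as above and Sox5, and no upper gene did. The median slopes were 0.33 and 0.23, next to 0.02 over all genes.

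Sox5, the factor that times the production of deep-layer neurons, was from 785 to 1184 in the high mice (median 956) and from 373 to 672 in the low mice (median 512). The groups did not overlap, at a difference of 0.98 (SD 0.17 and 0.25), and its slope was 0.70 (SE 0.15, adjusted p = 0.0101 by limma), which did not pass in deeper libraries alone (0.71, adjusted p = 0.0805). Tox, an HMG-box factor, Sulf1, an extracellular sulfatase, and Ntsr1, the layer 6 neurotensin receptor, had differences of 0.92, 0.69 and 0.68. The 3 deep genes with a negative difference were Foxp2 and Bcl11b, deep-layer factors that medium spiny neurons also express (-0.33 and -0.13), and Syt6, a synaptotagmin (-0.17). Among upper-layer genes the largest differences belonged to Plcxd2, a phospholipase-like protein (1619 to 5869 in the high and 744 to 2309 in the low mice, difference 1.30), and Cux2, a homeodomain factor (498 to 1503 and 288 to 737, difference 0.91). Both overlapped, and their slopes had adjusted p of 0.387 and 0.118. Rasgrf2, a Ras exchange factor, and Unc5d, a netrin receptor, followed with 0.74 and 0.64, and Calb1, a calcium buffer that is also striatal, was at -0.44.

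Genes reported as partners or targets of Tbr1 overlap with these lists, and 12 of 15 were compared. Their median difference was 0.31, 4 were at 0.5 or more (5.64% of all genes) and none at -0.5 or less (3.87%). The difference was negative for 4 of the 12 (51.3% of all genes). In all, 2, Sox5 among them, separated the groups (2.66%) and had slopes that passed the test (0.738%). Grin2b, an NMDA receptor subunit, was from 474 to 3619 in the high and from 82.3 to 2869.5 in the low mice, a difference of 0.78 that lay within the spread of the low group (SD 1.54). Ntng1, a netrin-G of axons, differed by 0.58 and had a slope of 0.04 (adjusted p = 0.942). Reln, the secreted guidance protein whose gene is bound by Tbr1 in the developing cortex, and Auts2, another reported target, differed by 0.31 and -0.03, with adjusted p of 0.389 and 0.478 for their slopes.

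**Figure D4:**
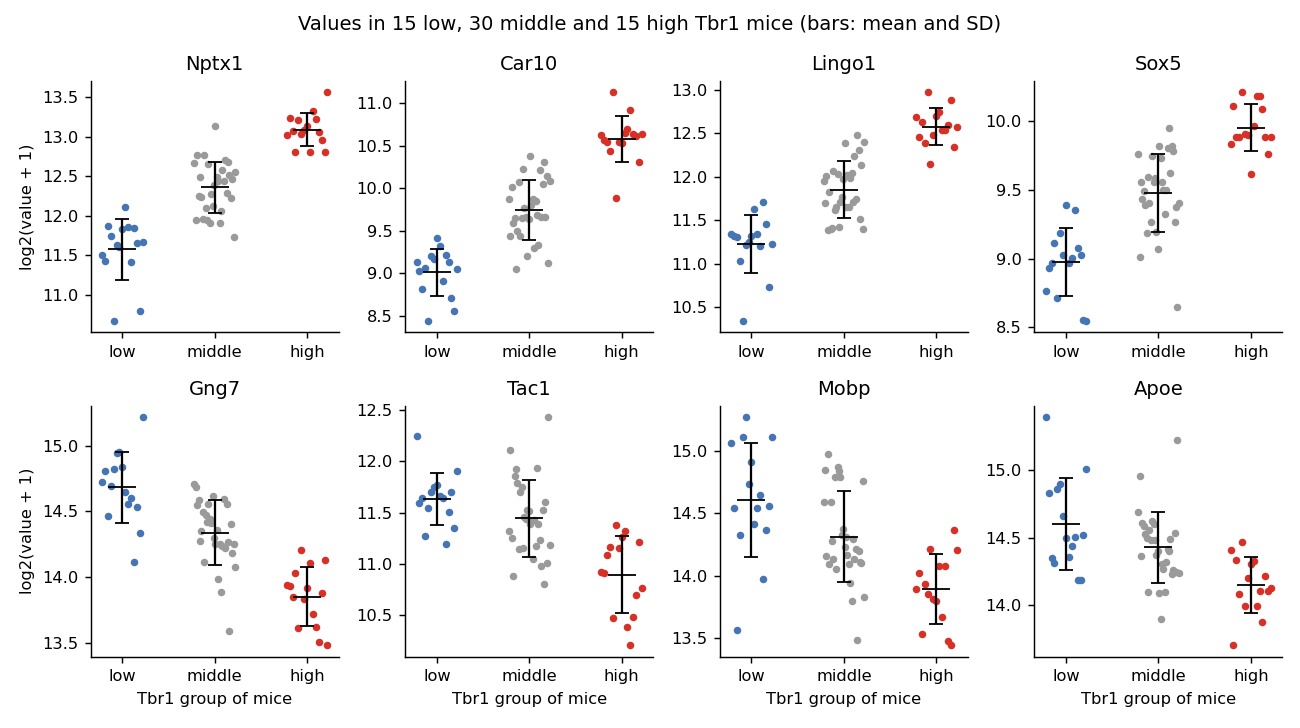
Values of 8 genes on the log2(value + 1) scale in the 15 low, 30 middle and 15 high Tbr1 mice, 1 point per mouse, with the mean and SD in black. Nptx1, Car10, Lingo1 and Sox5 do not overlap between the low and high mice, and Gng7, Tac1, Mobp and Apoe have lower means in the high mice with overlapping ranges.

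Medium spiny neuron genes lay on the other side of 0 between the extreme groups. Of 26 compared out of 36 listed, 25 had a negative difference (51.3% of all genes), 4 of them -0.5 or less (3.87%). None was at 0.5 or more or free of overlap, and the median was -0.41, a 1.33-fold lower level in the high mice. The summed value was from 137980 to 252120 in the high mice (median 185220) and from 194560 to 292450 in the low mice (median 242330).

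Drd2 was from 3104.5 to 5991 in the high mice (median 4076) and from 4341 to 7189 in the low mice (median 5234), a difference of -0.42 (SD 0.30 and 0.20), and Ppp1r1b was from 13640 to 26684 (median 19699) and from 17913 to 40190 (median 24277), also -0.42 (SD 0.27 and 0.30). Each had overlapping ranges, and each was lower in all of its exon rows, 8 of 8 and 5 of 5. The largest differences in the list were those of Gng7, the G protein subunit that couples dopamine and adenosine receptors to adenylyl cyclase, and Ido1, a tryptophan-degrading enzyme. Gng7 was from 11428 to 18907 in the high mice (median 15065) and from 17738 to 38134 in the low mice (median 26548), a difference of -0.83 (SD 0.22 and 0.27) with only a narrow overlap. Tac1, the precursor of substance P in neurons of the direct pathway, was from 1176.5 to 2655 (median 1940) and from 2347 to 4859 (median 3204), a difference of -0.74. The highest low-group values of Drd2, Ppp1r1b and Tac1 were those of mouse 5 and that of Gng7 was mouse 62, the 2 low mice with strong loss of 5′ signal. When the 4 mice with the strongest loss were left out and the rest ranked anew, 15 against 15, the differences were -0.33, -0.34, -0.70 and -0.76 in that order, and the median of the list was -0.34. Penk and Adora2a, the enkephalin precursor and the adenosine receptor of the indirect pathway, differed by -0.41 and -0.44.

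In the middle mice none of the 26 slopes passed the test, 13 were positive and 13 negative, and their median was -0.0018. For Drd2 the slope was 0.07 (SE 0.16, adjusted p = 0.842) and for Ppp1r1b -0.15 (SE 0.18, adjusted p = 0.687), by limma. Whether the extreme groups and the middle mice differ in this respect was not tested. By group median, the summed cortical list was 140170 in the high and 109020 in the low mice, against 185220 and 242330 for the medium spiny sum. The ranges of both sums overlapped between the groups. Neither the relation of the 2 sums mouse by mouse nor the part of the cortical list in the medium spiny result was tested.

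Interneuron genes, shared by cortex and striatum, showed no common direction, with a median difference of 0.10 over 9 of 21 genes. Kcnc2, the fast potassium channel Kv3.2, did not overlap, at 1521 to 2660 in the high and 649 to 1335 in the low mice (difference 1.09), and Kcnc1, its relative Kv3.1, differed by 0.53. Gad2, a GABA-synthesising enzyme, was at -0.36 and Npy at 0.33, and no slope of the list passed the test.

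Oligodendrocyte genes were compared for 13 of 23 listed, and all 13 had negative differences (51.3% of all genes), 4 of them -0.5 or less (3.87%). Their median was -0.33, and -0.29 when the 4 mice with the strongest loss of 5′ signal were left out. In the middle mice all 13 slopes were also negative, with a median of -0.36, but none passed the test. Mobp, a myelin protein, was from 11144 to 21110 in the high mice (median 15266) and from 12130 to 39487 in the low mice (median 24114). Mbp, the myelin basic protein, was from 44851 to 77512 (median 59611) and from 56023 to 142520 (median 96820). Their differences were -0.71 and -0.63 and their slopes -0.52 (SE 0.22, adjusted p = 0.341) and -0.44 (SE 0.22, adjusted p = 0.407), and Aspa, the aspartoacylase of oligodendrocytes, and Mal, a myelin lipoprotein, followed with -0.62 and -0.50. Of the oligodendrocyte precursor genes, 5 of 10 were compared, with a median of -0.01, and Tnr, a matrix tenascin, was highest at 0.73, within the spread of the low mice (SD 0.79).

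Astrocyte and microglial genes leaned the same way with smaller differences. Of 17 astrocyte genes out of 22, 16 were negative (51.3% of all genes) and none reached -0.5 (3.87%), with a median of -0.21. Apoe, the lipid carrier, was from 13314 to 22645 in the high mice (median 17885) and from 18655 to 43133 in the low mice (median 23238), and Gja1, the connexin of astrocytes, from 3774 to 4929 and from 4653 to 7151, with differences of -0.45 and -0.44. The highest Apoe value was that of mouse 5, and without the 4 mice with strong loss of 5′ signal its difference was -0.36. The 13 microglial genes out of 20 were all negative (51.3% of all genes), with a median of -0.30, and Ptprc (CD45) and the signalling adaptor Tyrobp were at -0.54 and -0.52. Without the same 4 mice the median was -0.16 for the astrocyte list and -0.20 for the microglial list. No slope of either list passed the test, although 14 of 17 and 12 of 13 were negative. Mouse 63, at rank 19 and with the strongest loss of 5′ signal, had the highest Apoe value of the middle mice, 38256. The signs of the oligodendrocyte, astrocyte and microglial slopes without mouse 63 are not reported here.

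Vascular genes showed no direction between the extreme groups. The 8 endothelial genes compared out of 21 had a median difference of -0.04 and ranged from -0.26 for Itm2a to 0.25 for Podxl, a sialomucin of the vessel wall. Their slopes in the middle mice were positive for 8 of 8, with a median of 0.27, and none passed the test, the smallest adjusted p being 0.305 for Eng, a TGF-β co-receptor. Of pericyte genes 2 of 12 were compared, Pdgfrb at 0.03 and Myl9 at -0.23, of meningeal genes 1 of 14, Fn1 at 0.41, and of immediate early genes 1 of 15, Per1 at 0.06. Of genes of neighbouring regions, Tcf7l2, a thalamic factor, differed by -0.76, Trpc4 by 0.26 and Lef1 by -0.06. None of the 15 listed genes of choroid plexus and ependyma was among the deposited genes, so this list could not be compared.

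The 6 genes whose values were lower in every high mouse than in any low mouse were Fmo1, Tbc1d16, Cdc42bpg, Adra2c, Nxn and Pttg1ip, named after their values were seen. Fmo1, a flavin monooxygenase, was from 68.4 to 162 in the high and from 163 to 268 in the low mice, and Adra2c, the alpha 2C adrenergic receptor of medium spiny neurons, from 957 to 1386 and from 1388.5 to 2599, with differences of -0.76 and -0.61. None of the 6 had a slope that passed the test. The single gene with a negative slope that did was Fhl1, a LIM domain protein, at -0.45 (SE 0.10, adjusted p = 0.0133 by limma, and 0.209 in deeper libraries alone), and its values in the extreme groups overlapped (1401 to 1837 in the high, 1529 to 2468 in the low mice, difference -0.29). As3mt, Eci2, Ddx55 and Idh2 had the next smallest p among negative slopes, of which As3mt came nearest the threshold (adjusted p = 0.0627).

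The 12 genes with the most negative differences were of another kind, 7 of them annotated as miRNA, snoRNA, scaRNA or antisense genes and 2 without a symbol, and none of them separated the groups. For 7 of the 12, the 16 mice numbered 41 to 56 were all above the other 44 mice, whereas this held for 0 of the 12 highest genes. Lars2, the mitochondrial leucyl-tRNA synthetase, was from 163650 to 546560 in mice 41 to 56 and from 914 to 5820.5 in all others, a gap far larger than its difference of -1.27 between the Tbr1 groups (SD 3.06 and 3.30). Gm15564, Gm23935, Gm24245 and Scarna2, a small Cajal body RNA, had the same pattern, with differences of -1.41, -1.82, -1.20 and -1.34. Gm15564, Gm13872 and Nron are antisense genes, and as the strand used in counting is not given in the sources used here, their reads cannot be told apart from those of the genes opposite. When the shallow libraries were compared among themselves, 4 against 4, the difference of Lars2 was 0.89 and that of Gm15564 was 1.76. The low mice of that comparison included mouse 26, which is not numbered 41 to 56 and had a Lars2 value of 3881. Between the 3 high and 4 low Tbr1 mice numbered 41 to 56, the differences were -0.59 for Lars2 and -0.37 for Gm15564. Chia1, a chitinase, and Pifo, a ciliary protein, differed by -1.39 and -1.34 without separating mice 41 to 56 from the rest. The other results were also measured apart from mice 41 to 56: when the other 44 mice were ranked anew and the 11 highest set against the 11 lowest, the median difference was 0.62 for the cortical list, -0.43 for medium spiny genes and -0.41 for oligodendrocyte genes, and when the 16 mice were ranked alone, 4 against 4, it was 0.60, -0.35 and -0.32.

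**Figure D5:**
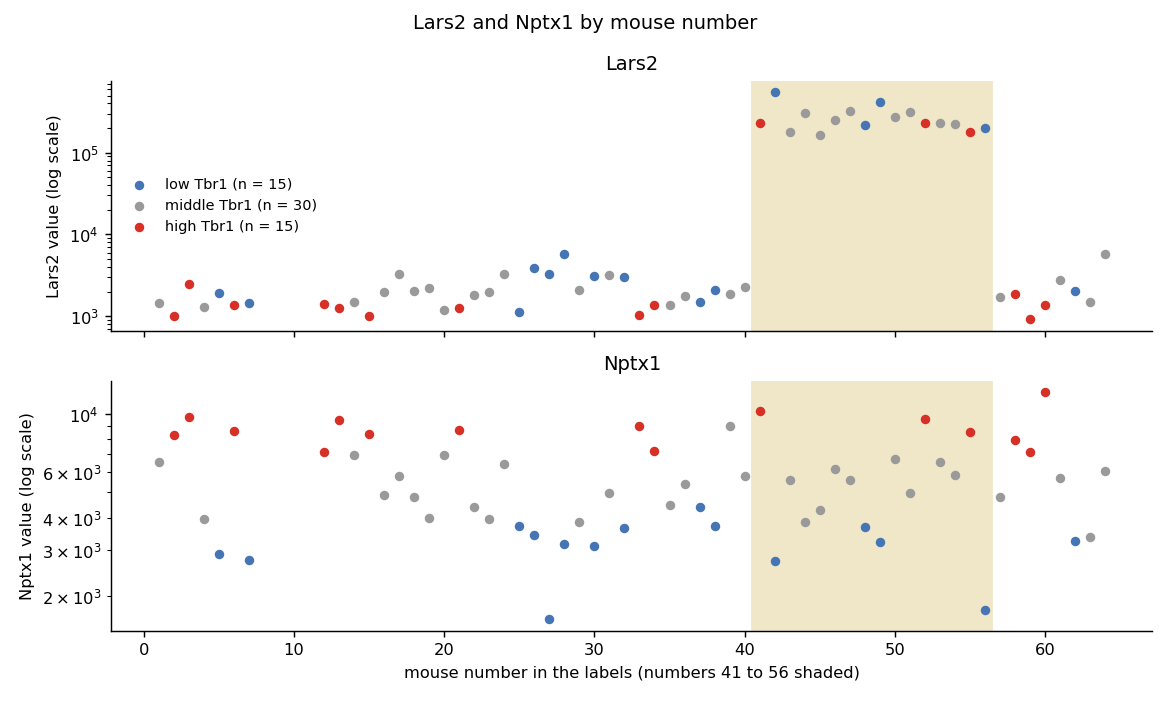
Lars2 and Nptx1 values (log axes) of the 60 mice by the number in their labels, coloured by Tbr1 group, with numbers 41 to 56 shaded. Lars2 is at least 163650 in all 16 shaded mice and at most 5820.5 in all others, while Nptx1 separates high from low mice inside and outside the shaded numbers.

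Response and sex were compared over all 60 mice with both terms in 1 limma fit. At an adjusted p under 0.05, 9 genes differed between responders and non-responders (0.105%) and 3 between males and females (0.0352%). None of the 12 was among the 227 genes that separated the Tbr1 groups or the 64 with a slope that passed the test. Across the 63 genes with positive slopes, the median difference of responders from non-responders was -0.05, and no member of any cell type list passed the test for response. The Tbr1 value, which chose the mice, was from 219 to 3089 in responders (median 1441) and from 700.5 to 2913 in non-responders (median 1529), and the values under 700.5 were those of mice 56 and 27.

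The differences between high and low Tbr1 mice were also taken within each sex and each response group. The cortical list had a median of 0.60 in females and 0.65 in males, and 0.58 in both responders and non-responders, and the medium spiny list -0.46 and -0.38 in females and males and -0.29 and -0.50 in responders and non-responders. In the middle mice no gene had a slope that differed between the sexes or between response groups at an adjusted p under 0.05 by limma, with 27 and 118 genes at an unadjusted p under 0.05, and the differences between subgroups of the extreme mice were not tested. These subgroups held from 5 to 10 mice at each end, which limits what such differences could show.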

How the data were processed

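Striatal polyA RNA of 60 mice was sequenced, 1 library per mouse. The authors called bases with CASAVA, checked them with FastQC, aligned them with Bowtie 0.12.7 to NCBI m37 (mm9), counted reads over the union of Ensembl exons, and scaled them by upper-quartile factors, using R 3.0.2 and edgeR 3.4.2 per the labels. The deposited gene values are a signal of scaled read counts, and the deposited exon values are scaled counts, treated here as a score and used only for exon rows. Whole reads were recovered for 100% of gene values (largest deviation 0.00014 of a read), giving 4913122 to 21872744 reads per mouse over the deposited genes, so that counting error limits mainly low genes. Symbols were given to 8858 genes by annotation of a later build (GRCm38), from which no gene coordinate is printed, and promoters came from RefSeq.

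Values were analysed as log2(value + 1) for 8534 genes with a mean of at least 10. The Tbr1 rank chose the groups, so that contrast is a description with SD over 15 mice each. Slopes in the middle mice and the response and sex terms were fitted with limma 3.58.1 (trend) in R 4.3.3, with Benjamini-Hochberg adjustment over all genes, and label counts were compared with scipy 1.17.1. Recovered reads were fitted with edgeR 4.0.16 as an alternative, and both slope fits were tested on simulated data. Each mouse is a separate animal, so the spread is between animals.

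Named were the 12 largest differences each way, up to 4 members per list by size of difference, Drd2 and Ppp1r1b, and the 5 smallest p of slopes each way. Some results under this rule are not reported here. Other genes, such as further list members, were chosen after their values were seen. The groups, lists and tests were chosen with earlier results of these data known, so that no pattern is independent support. Alternatives were TMM scaling, a pseudocount of 10, no filter, other group sizes, subsets by depth and mouse number, left-out mice and added covariates.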

Additional observations from a re-analysis of the deposited data

How the results depend on the processing

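Neither the signs of the cortical, medium spiny, oligodendrocyte, astrocyte and microglial medians nor, by more than 1.5 times, the number of genes at 0.5 or more changed under any alternative. Of the values that answer a comparison, 193 kept direction and side of the threshold, 8 weakened, 11 strengthened and 2 moved. Of 948 differences of named genes 8 reversed and 13 moved, and of 869 slopes 15 weakened and 3 strengthened. The causes were not tested.

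Genes not overlapping, higher and lower in the high mice, numbered 408 and 58 with 10 mice a group, 46 and 0 with 20, 383 and 57 in deeper libraries (11 against 11), 1144 and 495 in shallow libraries (4 against 4), 407 and 69 outside mice 41 to 56, and 1056 and 470 within them. Smaller groups overlap less by construction. Genes at -0.5 or less numbered 213 with a pseudocount of 10 and 169 with 20 mice a group. The interneuron median was -0.11 with 10 mice a group, and the endothelial median 0.12 within mice 41 to 56. Differences reversed with 20 mice a group for Gm15564 (0.32), Lars2 (0.081) and Gm24245 (0.046), and in shallow libraries for Gm23935 (1.63), Gm15564 (1.76), ENSMUSG00000093077 (0.61), Lars2 (0.89) and Gm24245 (0.71). The low mice of the shallow comparison included mouse 26, which is not numbered 41 to 56. Between the high and low Tbr1 mice within those numbers, the last-named genes differed by -0.29, -0.37, -0.81, -0.59 and -0.67 in that order. Without mice 56 and 27 the 4 counts were 234, 7, 492 and 332.

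Slopes that passed numbered 48 positive and 1 negative with TMM scaling, 51 and 1 with edgeR, 47 and 1 with sex and response as covariates, 84 and 4 with 3′ bias and shallow library as covariates, 33 and 0 in deeper libraries (593 and 208 at an unadjusted p under 0.05), 0 and 0 in the 20 mice of ranks 21 to 40, 46 and 1 without mouse 63, 61 and 1 without mice 63 and 4, and 58 and 1 with mice 41 to 56 as a covariate. Of those with edgeR, 52 also passed in limma. Nwd2, Sox5 and Fhl1 missed the threshold in deeper libraries (adjusted p = 0.133, 0.0805 and 0.209 by limma), and Hapln4 passed (0.0299). The alternatives on mice 56 and 27, 63 and 4, and 41 to 56 were chosen after seeing the data. No paired analysis was possible because mouse numbers are unique to each animal.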

Other observations

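Gene families defined by their symbols and chosen after their values were seen add groups that no list above held, and are given as a description without a test. Of 37 potassium channel genes, 15 differed by at least 0.5 between high and low Tbr1 mice (5.64% of all genes) and 1 by -0.5 or less (3.87%), 7 did not overlap (2.66%), and the median was 0.35, next to -0.01 over all genes. The inward rectifiers Kcnj3, Kcnj6 and Kcnj9, which carry G protein-gated currents, were 3 of those 7, and in the middle mice the slopes of Kcnj3 (0.61, SE 0.14, adjusted p = 0.0293) and Kcnj9 (0.60, SE 0.12, adjusted p = 0.0055) passed the limma test, beside differences of 1.38 and 1.08 between the extreme groups. Of 25 genes of synaptic vesicles and SNARE proteins, 11 differed by at least 0.5, 10 did not overlap and all 25 slopes were positive, next to 5.64%, 2.66% and 53.8% of all genes, but Sv2b alone passed the test. The 20 glutamate receptor genes had a median of 0.33 and the 9 GABA A receptor subunits 0.14, with no slope past the threshold.

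Genes of respiration and protein synthesis lay on the other side of 0. Of 35 complex I subunits, 30 were lower in the high mice (51.3% of all genes), with a median of -0.30, and all 35 slopes were negative without any passing the test. The 23 cytosolic ribosomal protein genes were all lower, 15 of them with a difference of -0.5 or less (3.87% of all genes), with a median of -0.53, and 21 of their slopes were negative, none of which passed. Rps24, a small subunit protein, was from 130 to 238 in the high and from 190 to 485 in the low mice. The mice with the strongest loss of 5′ signal were included, 5 and 62 in the low group and 63 and 4 among the middle mice. Differences and slopes of these families, and of those above, without these mice are not reported here. How far the signs depend on them was not tested. Ribosomal protein genes have near-identical processed copies, between which counting could split reads, so their values are uncertain.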
